A study of Mus musculus with 6 samples.

Results

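DNA methylation was described at the 6 mouse genes that write and erase this mark: the methyltransferases Dnmt1, Dnmt3a and Dnmt3b, and the dioxygenases Tet1, Tet2 and Tet3. The cytosines were chosen by position alone, as all those listed in 6 mm9 windows around the genes: chr9:20705000-20775000 for Dnmt1, chr12:3795000-3920000 for Dnmt3a, chr2:153465000-153520000 for Dnmt3b, chr10:62260000-62380000 for Tet1, chr3:133120000-133215000 for Tet2 and chr6:83305000-83415000 for Tet3. The windows held 339 of the 652716 cytosines measured. A run is a group of cytosines whose neighbours lie at most 100 bp apart, and the 339 cytosines fell into 121 of the 249688 runs of the table. Of these, 31 were long and deep enough to be tested as regions, out of 56105 regions tested in all. The other 90 runs stood outside the main test: 82 held fewer than 3 cytosines, and 8 had fewer than 10 reads in at least 1 sample.

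The assay was reduced representation bisulfite sequencing, which reads cytosines near the cut sites of restriction enzymes, here MspI and TaqI. All 6 samples were C57BL/6J mouse cells from bone marrow and carried the label male. Day 0 was uncultured marrow, called marrow below (replicates 2 and 3). Day 4 (replicates 1 and 2, labelled common myeloid progenitor) and day 7 (replicates 1 and 4, labelled bone-marrow derived dendritic cell) were cultured in RPMI medium with supernatant of a cell line that secretes Flt3L, a cytokine that drives dendritic cell growth. At both culture times the whole live population was taken, with no sort for the labelled cell type, so each value is an average over a mixed population. A change in the makeup of that population and a change of methylation within cells cannot be told apart. The labelled cell types were not checked against marker genes, since the table holds methylation calls and no RNA. Where 2 values are given for a day, they follow the replicate order just given.

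Dnmt1 is the maintenance methyltransferase: after replication it copies methylation from the old strand of a CpG to the new one, guided by Uhrf1. Dnmt3a and Dnmt3b are the de novo enzymes and methylate CpG sites on both strands that had no methylation. Tet1, Tet2 and Tet3 oxidise 5-methylcytosine to 5-hydroxymethylcytosine and further products, which can be lost at replication or replaced through base excision. Bisulfite does not separate 5-methylcytosine from 5-hydroxymethylcytosine, so both count as methylated here. In blood formation, Dnmt3a and Tet2 are known as genes whose loss in stem cells favours clonal growth. Promoters that are rich in CpG are as a rule unmethylated in most tissues, while most CpG sites in gene bodies are methylated.

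The values are methylation levels, each the methylated reads as a percent of all reads, with reads summed over the cytosines of a run. A sequencing read that crosses several cytosines counts once at each, so region reads exceed the number of molecules. Reads at table cytosines ranged from 3641141 (day 7 replicate 4) to 10242334 (day 4 replicate 1) per sample, and reads in the 6 windows from 1447 to 4719 in the same samples. Median reads per cytosine were 14 and 11 in marrow, 14 and 9 at day 4, then 12 and 4 at day 7, so day 7 replicate 4 gave the least precise values. The day 7 libraries stood apart on the X chromosome: their reads per cytosine relative to autosomes were 1.01 and 1.07, against 0.65 to 0.688 in the other 4 samples. X regions that were low at day 0 had a mean level of 23.3% and 23.9% in them, against 1.21% to 1.53% in the others. The label male, carried by all 6 samples, gives no such split, and the sex of the donors was not tested. All 6 genes are autosomal. In every comparison with day 7, however, the day of culture and this split between libraries cannot be told apart. Mitochondrial DNA is held to be largely unmethylated, and its cytosines read 0.547% and 0.49% in marrow, 1.17% and 0.664% at day 4, then 2.27% and 1.76% at day 7.

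Start sites were sought because no mm9 annotation was used here, so exons, introns and untranslated regions were not assigned. RefSeq start sequences of GRCm38.p6 were compared with the whole table by the spacing of their CpG sites, and no coordinate was converted. Of the 10 start sequences RefSeq lists for the 6 genes, 2 found a single best place on their own chromosome with at least 8 cytosines, 1 of Tet1 and 1 of the 3 of Dnmt1. For Tet1, 13 of 17 CpG sites fell on measured cytosines, and the next best place matched 4. For Dnmt1, 9 of 33 did, with 6 at the next best place; this match is less secure, since a Tet2 sequence also reached 9 on a chromosome that is not its own. Both places lay inside the gene's own window. The sequences are shown because the methylation values of these genes can be read directly on them; capitals mark the CpG sites with measured cytosines, and each runs from 250 bases before to 50 after the start on the gene's strand, 5′ to 3′. The Dnmt1 sequence lies at GRCm38.p6 chr9:20952574-20952873 and the Tet1 sequence at GRCm38.p6 chr10:62887275-62887574, both on the minus strand.
Dnmt1: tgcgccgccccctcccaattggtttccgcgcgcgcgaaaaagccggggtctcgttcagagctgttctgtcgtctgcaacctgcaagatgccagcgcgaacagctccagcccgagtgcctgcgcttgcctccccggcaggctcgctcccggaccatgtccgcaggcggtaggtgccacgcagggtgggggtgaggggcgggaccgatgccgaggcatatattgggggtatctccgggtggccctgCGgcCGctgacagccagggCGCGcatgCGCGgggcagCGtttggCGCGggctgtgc
Tet1: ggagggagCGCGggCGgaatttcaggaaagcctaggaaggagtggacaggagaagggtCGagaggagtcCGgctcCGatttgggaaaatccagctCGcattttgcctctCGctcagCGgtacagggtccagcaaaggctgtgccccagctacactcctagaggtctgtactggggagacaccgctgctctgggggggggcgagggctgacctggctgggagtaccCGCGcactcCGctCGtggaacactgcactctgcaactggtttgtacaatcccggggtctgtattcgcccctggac
In the Dnmt1 sequence the measured sites cluster in the last stretch around the start. In the Tet1 sequence they lie in the distal stretch and again next to the start, with a gap between. Over the 9 marked Dnmt1 sites the level was 1.48% and 0% in marrow, 0% and 1.64% at day 4, then 0% and 0% at day 7, from 41 to 135 reads. Over the 13 marked Tet1 sites it was 2.83% and 0.704% in marrow, 3.14% and 5.77% at day 4, then 6.38% and 13.3% at day 7, the last from 30 reads. Both starts were lowly methylated in all 6 samples, and the Tet1 values are taken apart site by site further on.

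Each of the 6 windows held runs below 20% and runs above 80%. In the Tet1 window more runs lay between these limits (14) than below (8) or above them (11). Over all samples pooled, 24 of the 121 runs were below 20%, 33 between 20% and 80%, and 64 above 80%. That is 19.8%, 27.3% and 52.9% of runs, against 18.1%, 39.3% and 42.6% of the 245430 autosomal runs. Each gene had at least 1 tested region below 20%. The low runs also held more measured cytosines, with a median of 5 per run against 1 in the middle class and 2 in the high class. Of the 24 low runs, 3 were single cytosines. Among autosomal runs the medians were 3, 1 and 1.

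**Figure D1:**
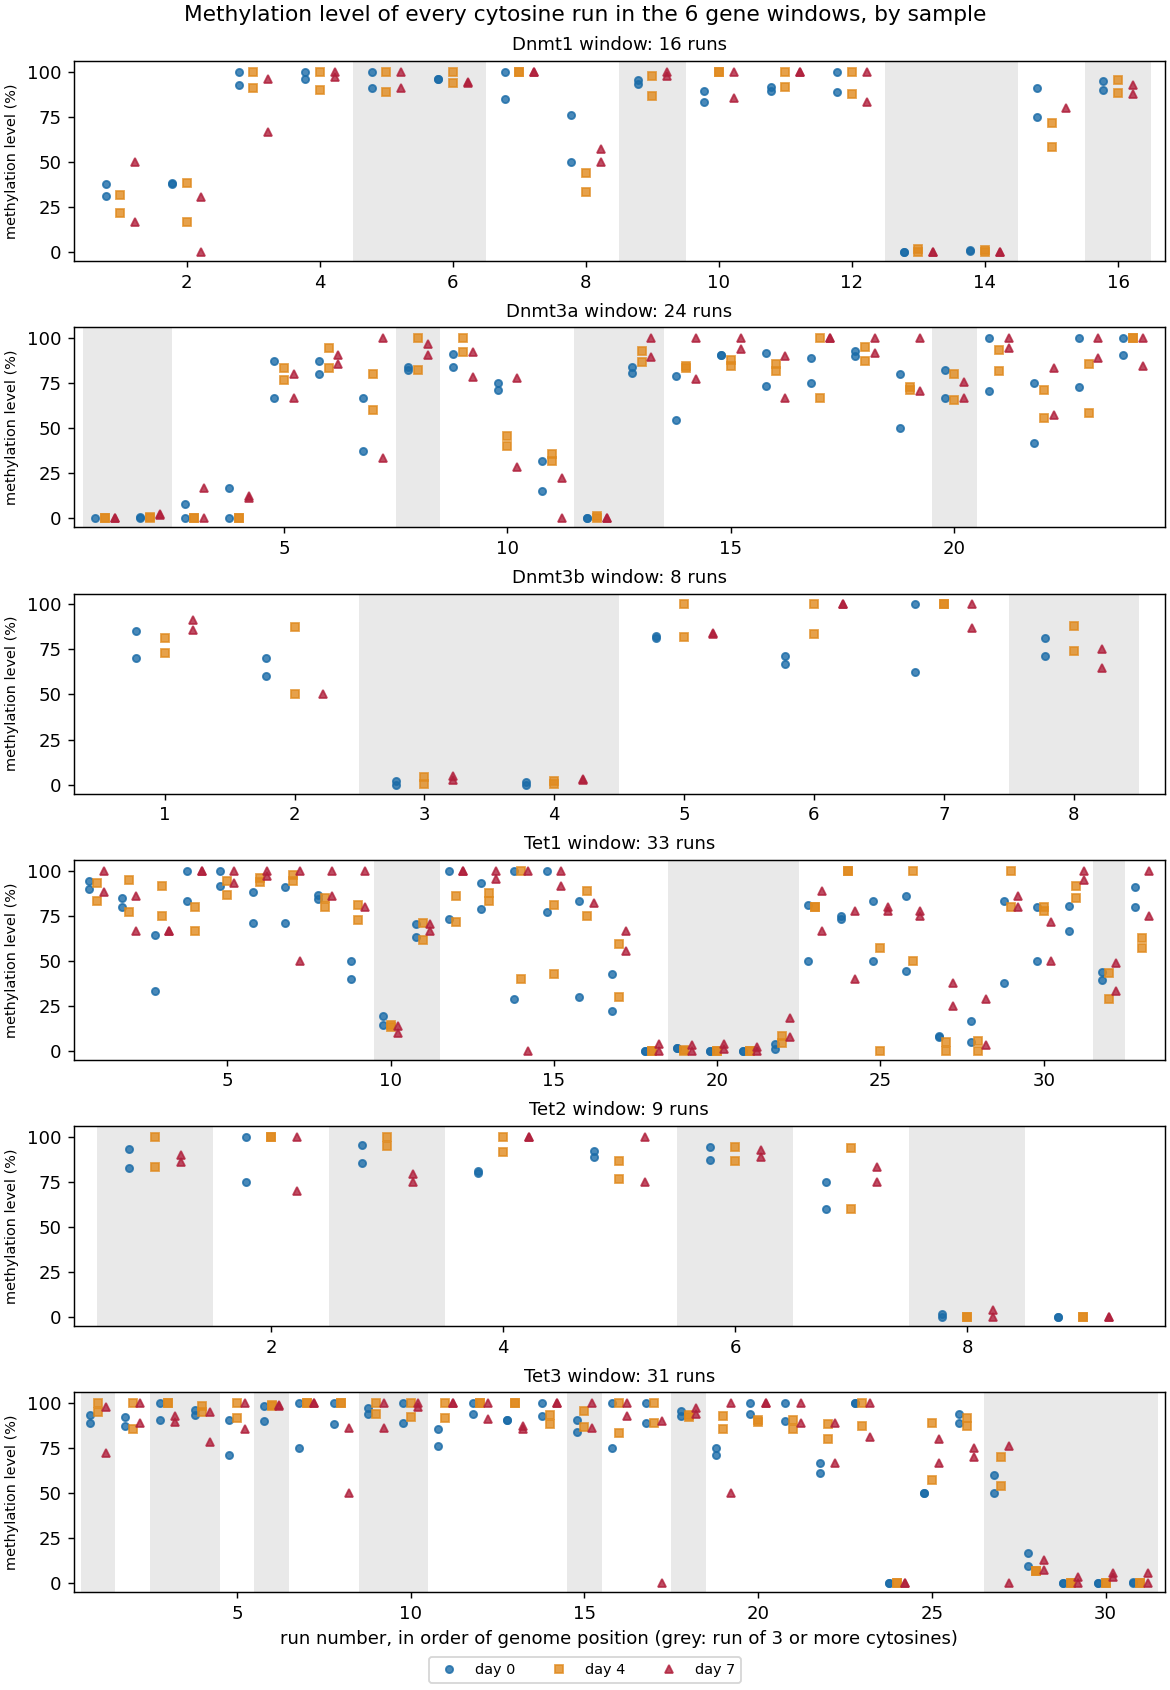
Methylation level (%, vertical axis) of each of the 121 cytosine runs of the 6 gene windows, in order of position, with 1 point per sample coloured by day of culture and grey bands for runs of at least 3 cytosines. Each window has runs near 0% and runs above 80%, and at most runs the samples of the 3 days lie together; runs without a band rest on few reads and scatter more.

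Dnmt1, the maintenance enzyme, had 48 cytosines in 16 runs and 5 tested regions. Its low stretch covered 725 bp (chr9:20756348-20757072) with 19 cytosines, of which the 9 marked above are part. Over all samples 5 of 1102 reads there were methylated, or 0.454%. The region of 14 cytosines at chr9:20756968-20757072 had 0.966% and 0.625% in marrow, 0% and 1.1% at day 4, then 0% and 0% at day 7. The 2 day 7 values rest on 66 and 93 reads, where a count of 0 still allows 4.55% and 3.23% or more. The limits are higher where a read was counted at several cytosines. The day 7 values thus cannot be told from the day 0 values by depth. The difference of day 7 from day 0 was -0.796 points (edgeR adjusted p = 0.554). The nearest measured cytosine upstream of the start, 5951 bp beyond the stretch, was at 75% over all samples, and the nearest on the other side, 18513 bp away, at 93%.

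The 3 methylated regions tested in Dnmt1 were at 86.4% or more in all 6 samples. The tested region with most cytosines on this side, 4 at chr9:20728664-20728776, had 93.4% and 95.6% in marrow, 97.8% and 86.4% at day 4, then 97.9% and 100% at day 7. The day 7 values lie above both day 0 values, by a mean of 4.47 points (edgeR adjusted p = 0.605). The other 2 methylated regions tested, with 3 cytosines each at chr9:20716446-20716532 and chr9:20718238-20718343, ranged from 89.1% to 100% over the 6 samples. Short runs of the window held other levels. The run of 2 cytosines at chr9:20726215-20726258 was between 33.3% and 76%. At the far end from the start, the run of 2 cytosines at chr9:20706475-20706492 had 31% and 37.5% in marrow, 31.6% and 21.7% at day 4, then 16.7% and 50% at day 7. Its groups overlap. It was too short for the main test, and with runs of 1 or 2 cytosines admitted, edgeR gave adjusted p values of 0.912 to 0.987 over the 3 comparisons.

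Dnmt3a, the de novo enzyme with a known role in blood stem cells, had 50 cytosines in 24 runs and 4 tested regions. It had 2 separate low stretches. The first, chr12:3807921-3808748, had 16 cytosines over 828 bp with 1.34% of reads methylated over all samples. Within it, the region of 9 cytosines at chr12:3808104-3808229 had 0% and 0.562% in marrow, 0.575% and 0% at day 4, then 2.1% and 2.33% at day 7. Both day 7 values were above the other 4, but they stand for 3 methylated reads of 143 and 1 of 43. The difference of day 7 from day 0 was 1.93 points, which did not pass the test (edgeR adjusted p = 0.448). The second low stretch, chr12:3891914-3891929, had 3 cytosines and 1 methylated read among 273, in day 4 replicate 2.

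Both methylated regions tested in Dnmt3a had higher means in the cultures than in marrow. At chr12:3849409-3849446 (4 cytosines) the level was 84.1% and 82.5% in marrow, 100% and 82.4% at day 4, then 96.8% and 90.9% at day 7. At chr12:3899876-3899988 (4 cytosines) it was 80.5% and 84.1% in marrow, 92.6% and 86.7% at day 4, then 89.5% and 100% at day 7. Day 7 did not overlap with day 0 at either region, whereas day 4 overlapped with day 0 at the first. The differences of day 7 from day 0 were 10.5 and 12.4 points, the latter the largest of the 31 regions, and neither passed the test (edgeR adjusted p = 0.474 and 0.487). The second came to 7.18 points without day 7 replicate 4, which had 19 reads there.

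Dnmt3b, the other de novo enzyme, had 27 cytosines in 8 runs and 3 tested regions. Its low stretch, chr2:153475572-153475919, had 17 cytosines over 348 bp with 24 of 1387 reads methylated, or 1.73%. The region of 9 cytosines at chr2:153475572-153475631 had 0% and 2.22% in marrow, 0.578% and 3.92% at day 4, then 4.88% and 2.7% at day 7. The region of 8 cytosines at chr2:153475739-153475919 had 0% and 1.47% in marrow, 0.535% and 1.85% at day 4, then 2.94% and 2.78% at day 7. At both, day 7 lay above day 0 without overlap, and the 2 samples of day 0 and of day 4 were themselves apart. At the first the difference was 2.68 points (edgeR adjusted p = 0.441). The methylated region tested, chr2:153516215-153516353 (3 cytosines), had 81.6% and 71.1% in marrow, 88.2% and 74.4% at day 4, then 75% and 64.7% at day 7. Its groups overlap in every comparison, and the difference of day 7 from day 0 was -6.49 points (edgeR adjusted p = 0.876).

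Tet1 had the most partly methylated runs of the 6 genes: its 89 cytosines fell into 33 runs, 14 of them between 20% and 80%, with 5 tested regions. Its main low stretch, chr10:62348766-62350313, covered 1548 bp with 35 cytosines and holds the start site found above. Over all samples 55 of 3113 reads were methylated, or 1.77%. By sample this was 1.57% and 0.758% in marrow, 0.909% and 1.88% at day 4, then 3.77% and 3.17% at day 7. Both day 7 samples lay above the other 4 over this stretch.

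The edges of the Tet1 stretch could be followed from cytosine to cytosine, here with the reads of the 2 samples of a day summed. From 11 to 24 bp upstream of the start, and from 133 to 154 bp upstream, no cytosine had a methylated read at day 0 or day 4. The cytosine 174 bp upstream stood at 3.57% in marrow, 4.17% at day 4, then 7.69% at day 7. At 180 bp the levels were 0%, 5.26% and 0%, and at 191 bp 7.14%, 8.33% and 0%, so day 7 was not above marrow at every site. The cytosine 235 bp upstream stood at 0%, 16% and 12.9% on the same days, and that 239 bp upstream at 0%, 7.69% and 9.68%. The cytosine 241 bp upstream, at the distal end of the printed sequence, stood at 15.2%, 12% and 23.3%. The next cytosine, 352 bp upstream, was at 70.8%, 80% and 85.7%. On each of the 3 days the level thus went from 23.3% or less to 70.8% or more within 111 bp. On the downstream side the level at 1306 bp was 0% at day 0 and day 4 and 6.25% at day 7. It was 18.8%, 43.8% and 58.3% at 1753 bp, and 43.8%, 56.2% and 58.3% at 1761 bp. Each of these single cytosines rests on 11 to 33 reads per day. Positions may be off by 1 bp because the table does not say which base of a CpG it lists.

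**Figure D2:**
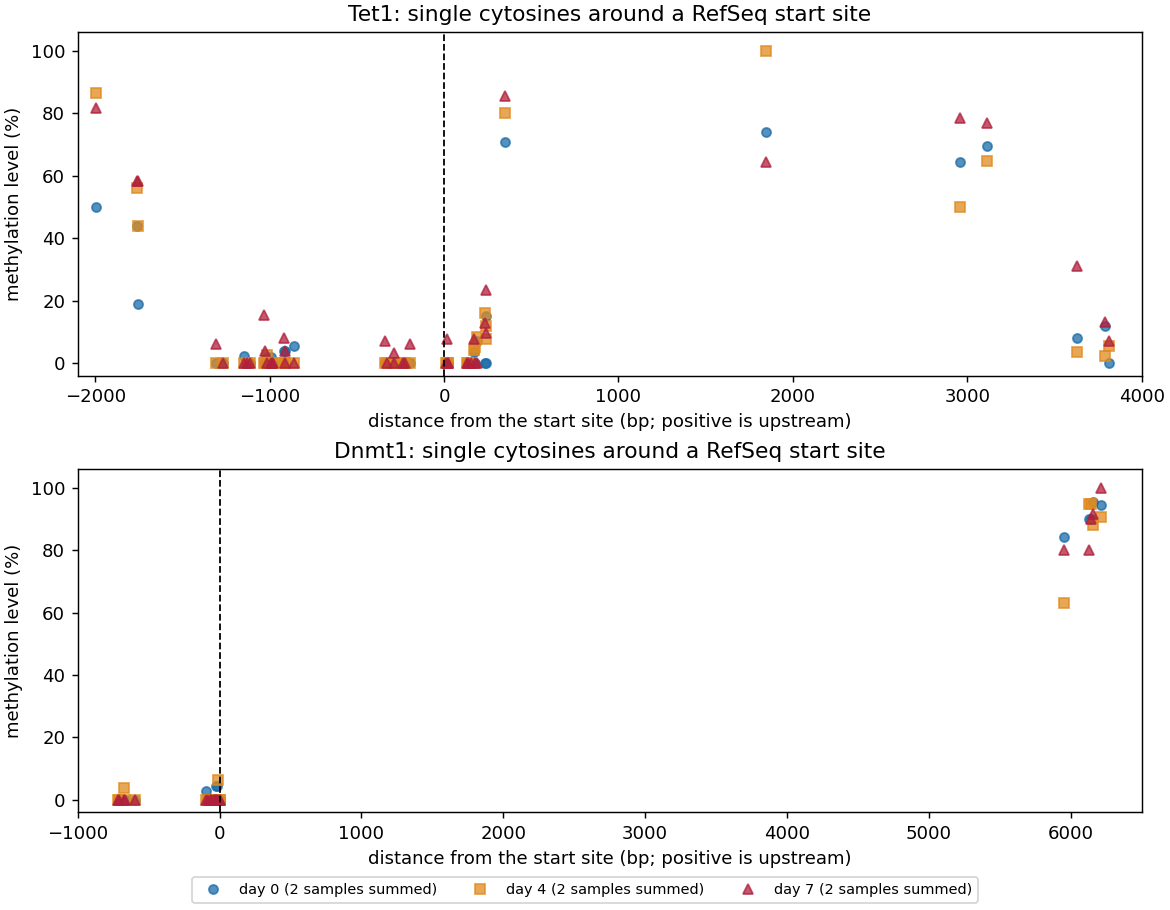
Methylation level (%, vertical axis) of single cytosines against distance from a RefSeq start site of Tet1 (upper panel) and of Dnmt1 (lower panel), positive distances being upstream, with the reads of the 2 samples of each day summed into 1 point. At Tet1 the points lie near 0% around the start and are at 70.8% to 85.7% at 352 bp upstream. At Dnmt1 the points around the start lie near 0%, and the next measured cytosine upstream is at 63.2% to 84.2%.

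The distal edge gave the largest difference among the low regions of the 6 genes. The region of 9 cytosines at chr10:62350205-62350313, which is the upstream part of the printed Tet1 sequence, had 4.05% and 1.06% in marrow, 4.58% and 8.33% at day 4, then 7.64% and 18.2% at day 7. Day 4 and day 7 both lay above day 0 without overlap, and they overlap with each other. The difference of day 7 from day 0 was 10.4 points (unadjusted p = 0.0219, edgeR adjusted p = 0.296). It came to 5.08 points without day 7 replicate 4, which had 4 methylated reads of 22. Reads were spread unevenly over the 9 cytosines. As the mean of the cytosines' own levels, which gives each the same weight, the difference was 6.16 points. The difference of day 4 from day 0 was 3.9 points (edgeR adjusted p = 0.841). Neither the 10.4 nor the 3.9 points passed the test.

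The other 2 tested regions of the same Tet1 stretch were at 3.85% or less in all 6 samples. The region of 13 cytosines at chr10:62348927-62349212 had 1.67% and 1.38% in marrow, 0% and 0.549% at day 4, then 3.17% and 0% at day 7. Both day 4 samples lay below day 0, by a mean difference of -1.25 points (edgeR adjusted p = 0.736). Its day 7 samples lay on either side of day 0, and the difference of day 7 from day 0 was 0.0591 points (edgeR adjusted p = 0.912). The region of 7 cytosines at chr10:62349731-62349875 had no methylated read in the 4 samples of day 0 and day 4, and 0.787% and 3.85% at day 7, which is 1 read of 127 and 2 of 52. The difference of day 7 from day 4 was 2.32 points (edgeR adjusted p = 0.356).

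Tet1 also had partly methylated regions. The region of 10 cytosines at chr10:62328445-62328697 had 14.3% and 19.4% in marrow, 14.2% and 13.1% at day 4, then 9.71% and 14% at day 7. Both other days lay below day 0, with differences of -3.23 and -5.01 points, and neither passed the test (edgeR adjusted p = 0.969 and 0.712). The region of 4 cytosines at chr10:62373533-62373662, upstream of the start, had 43.9% and 39.2% in marrow, 43.1% and 28.6% at day 4, then 48.7% and 33.3% at day 7, with overlap in every comparison. The run of 5 cytosines at chr10:62332969-62333139 had 70.2% and 63.2%, 61.3% and 70.8%, and 70.2% and 66.7%, and was not tested because day 7 replicate 4 had 9 reads. All 3 places held part of their reads methylated in all 6 samples, between 9.71% and 70.8%. A middle level can average unlike cytosines. In marrow, chr10:62373533 had 14 of 17 and 11 of 15 reads methylated, and chr10:62373618 of the same region had 3 of 16 and 3 of 15. Day 7 replicate 4 had no read at the last cytosine of that region.

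Tet2, the Tet enzyme best known from myeloid cells, had 21 cytosines in 9 runs and 3 tested regions, the fewest cytosines of the 6 genes. Its low stretch, chr3:133207207-133208141, had 7 cytosines over 935 bp and 2 methylated reads of 437, or 0.458%. The region of 5 cytosines at chr3:133207207-133207331 had 0% and 1.45% in marrow, 0% and 0% at day 4, then 0% and 4.17% at day 7, the latter 1 read of 24. The nearest measured cytosine, 9962 bp away, was at 77.6%. On the methylated side, chr3:133131042-133131069 (4 cytosines) had 82.8% and 93.4% in marrow, 100% and 83.3% at day 4, then 90% and 86.2% at day 7. The differences of day 7 from day 0 were 1.36 and -0.0241 points, both with overlapping groups (edgeR adjusted p = 0.89 and 0.996). The other methylated region, chr3:133197115-133197130, ranged from 86.8% to 94.3%.

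Tet3 had the most measured cytosines, 104 in 31 runs, and 11 tested regions. Of the 31 runs, 23 were above 80% and 3 between 20% and 80%. The low stretch, chr6:83405229-83406938, covered 1710 bp with 31 cytosines and 2.19% of reads methylated over all samples. The run 174 bp below it stood at 57.5% over all samples. The region next to that edge, chr6:83405229-83405360 (3 cytosines), had 17% and 9.76% in marrow, 6.98% and 6.9% at day 4, then 12.9% and 7.14% at day 7.

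The Tet3 region of 11 cytosines at chr6:83406543-83406586 gave the smallest adjusted p of the 31 regions over the 3 comparisons. It had no methylated read in the 4 samples of day 0 and day 4, which had 99, 66, 99 and 44 reads. If these were independent, a count of 0 would allow up to 3.03%, 4.55%, 3.03% and 6.82%. Each of the 11 cytosines had only 9, 6, 9 and 4 reads, and a read can cross several, so the limits are higher. At day 7 it had 3.41% (6 reads of 176, on 4 of the 11 cytosines) and 5.56% (2 of 36, on 2 cytosines). Day 7 lay above day 0 and day 4 by 4.48 points each (edgeR adjusted p = 0.163 and 0.234), so neither difference passed the test. Its neighbour chr6:83406392-83406428 (7 cytosines) was at 0% in every sample but day 7 replicate 1, at 3.57%. At chr6:83406835-83406938 (10 cytosines) day 7 replicate 1 was at 0% and replicate 4 at 5.71%.

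The 7 methylated regions tested in Tet3 had a mean of 93.1% ± 0.649 (SD, n = 2) in marrow, 96.2% ± 1.88 at day 4, then 92.8% ± 2.11 at day 7. The region of 9 cytosines at chr6:83318007-83318120 had 93.3% and 88.9% in marrow, 95.1% and 100% at day 4, then 98.1% and 72.2% at day 7. The low value of day 7 replicate 4 set the sign of the difference of day 7 from day 0, which was -5.93 points with it and 7.04 without it (edgeR adjusted p = 0.795 and 0.498). The same sample sets the difference of day 7 from day 4, -12.4 points and the largest fall in the mean among the 31 regions (edgeR adjusted p = 0.364). At day 4 the region lay above day 0 by 6.46 points (edgeR adjusted p = 0.792). The region chr6:83331058-83331259 (6 cytosines) had 90.1% and 98.3% in marrow, 99.2% and 98.3% at day 4, then 98.8% and 98.3% at day 7. Its day 4 difference of 4.58 points came from day 0 replicate 2 and was 0.481 without it. The region chr6:83354523-83354666 (8 cytosines) stayed between 92.3% and 97.3% in all 6 samples.

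Across the 6 genes no region was called in any comparison. A call needed an adjusted p below 0.05 over all 56105 regions and a difference of at least 20 points, and the differences of the 31 regions ran from -6.45 to 7.88 points for day 4 against day 0, from -12.4 to 6.86 when day 7 was set against day 4, and from -7.96 to 12.4 when it was set against day 0. The edgeR test called 0.00178% of all regions for day 4 against day 0, 0.451% between day 4 and day 7, and 0.497% between day 0 and day 7. These shares include the X chromosome. Fitted on the autosomes alone, where all 6 genes lie, the test called 1, 10 and 23 of 55146 regions. The 0 of 31 is close to both sets of shares. At an unadjusted p below 0.05, edgeR gave 3, 6 and 5 of the 31 regions, against 6.6%, 11.4% and 12.9% of all regions. Other tools also called 0 of the 31 regions. At an unadjusted p below 0.05 the edgeR quasi-likelihood test gave 1, 5 and 3 of them, and limma 0, 5 and 5. Fisher's exact test, run on reads pooled by day, gave 1, 5 and 5. The shares of all regions at this threshold are not given for these 3 tools, so their counts cannot be set against the table. Over all regions the quasi-likelihood test called 0, 166 and 174, limma 0, 63 and 47, and Fisher's test 358, 583 and 788. For day 4 against day 0, quasi-likelihood and limma thus called nothing anywhere, so their 0 is not particular to these genes. The smallest adjusted p by edgeR was 0.679, 0.205 and 0.163. With 2 samples a day, 0 calls do not show that levels were equal.

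The direction of the small differences was counted by regions whose groups do not overlap. For day 4 against day 0, 4 of 31 regions were higher and 3 lower, where 20.6% and 10.3% of all regions were. For day 7 against day 4, 7 were higher and 1 lower, where 24.4% and 10.3% of all regions were. For day 7 against day 0, 9 were higher and 3 lower, where 29.8% and 7.03% of all regions were. The 3 comparisons share samples with each other. The median difference of the 31 regions was 0.458, 1.67 and 1.33 points, beside 0.44, 0.958 and 1.53 over all regions. For day 7 against day 4 the median of the genes was above that of all regions and fewer of their regions were lower, and neither gap was tested.

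**Figure D3:**
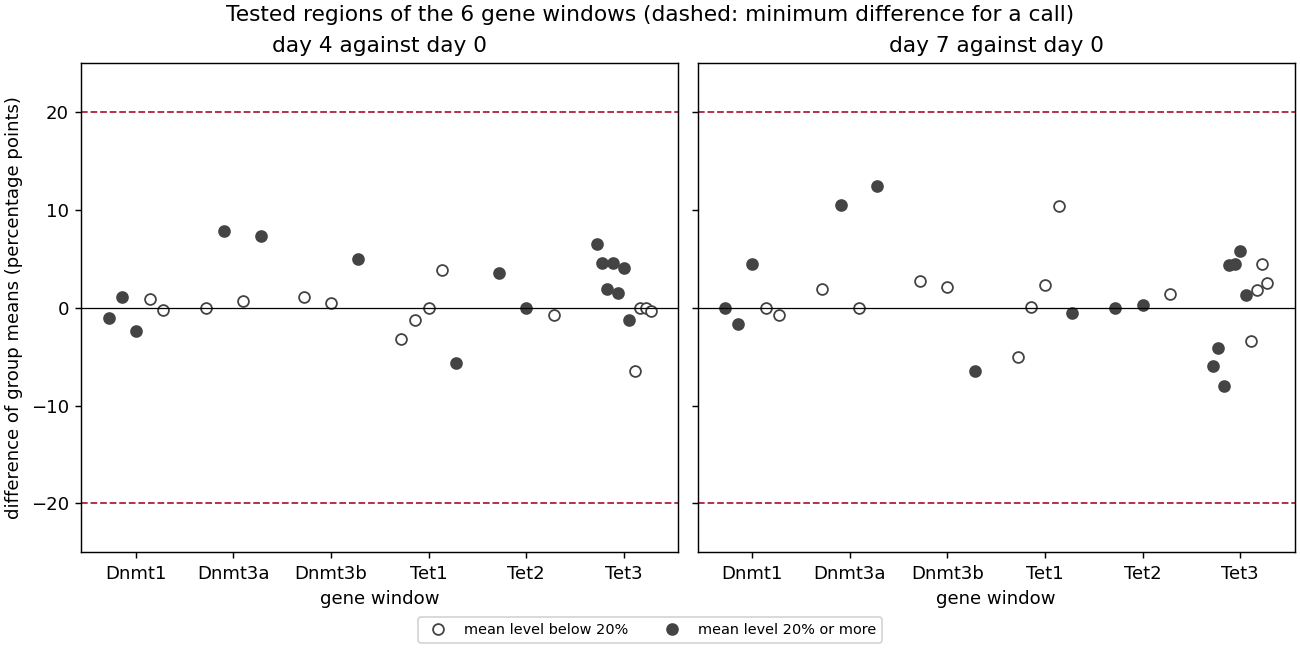
Difference of group mean methylation (percentage points, vertical axis) of each of the 31 tested regions, by gene window in order of position, for day 4 against day 0 (left) and day 7 against day 0 (right), with open circles for regions whose mean level is below 20%. All points lie inside the dashed lines at 20 points that a call needed, between -6.45 and 7.88 on the left and between -7.96 and 12.4 on the right.

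The low regions of the genes had a higher mean at day 7. The 12 regions with a mean below 5% had a mean level of 0.457% ± 0.336 (SD, n = 2 samples) in marrow, 0.513% ± 0.527 at day 4, then 2% ± 0.367 at day 7. The 19598 autosomal regions below 5% had 1.03% ± 0.142, 1.06% ± 0.128 and 2.17% ± 0.222. Of the 15 member regions below 20%, 6 were higher and 2 lower at day 7 than at day 0 without overlap, where 30.8% and 4.49% of the 23078 autosomal regions below 20% were. Both Dnmt3b regions were higher at day 7 than at day 0 without overlap. The Dnmt1 regions had 0% in both day 7 samples, but from 18 to 93 reads, where a count of 0 allows 3.23% or more, so that a difference between the genes was not detectable at this depth and was not tested. The mitochondrial level given above, 2.27% and 1.76% at day 7 against 0.49% to 1.17% before, moved with it, and its part in the result was not tested.

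**Figure D4:**
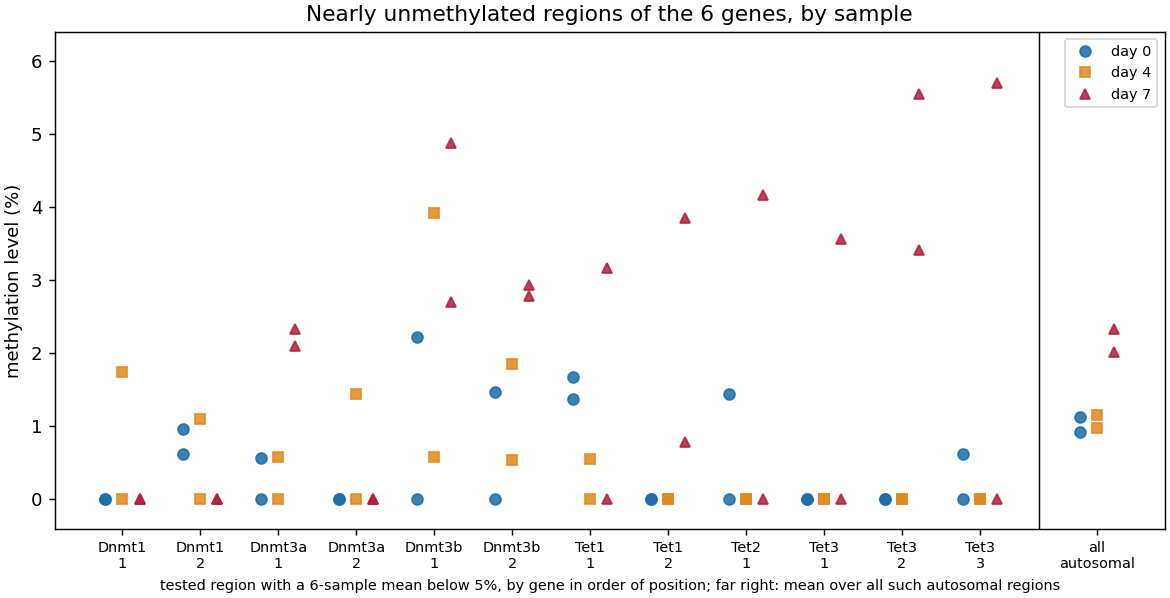
Methylation level (%, vertical axis) of the 12 tested regions with a mean below 5%, grouped by gene, with 1 point per sample by day, and at the far right the mean over the 19598 autosomal regions below 5%. The highest point of 9 of the 12 regions is a day 7 sample, while at both Dnmt1 regions and at the second of Dnmt3a the day 7 samples are at 0%.

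The methylated regions had a higher mean than the autosomal regions of the same class on all 3 days. The 16 regions at or above 20% had a mean of 87.5% ± 0.243 (SD, n = 2) in marrow, 89.8% ± 3.13 at day 4, then 88.6% ± 1.72 at day 7, beside 76.4% ± 1.87, 79% ± 1.55 and 79.6% ± 0.996 over the 32068 autosomal regions of this class. Of the 16, 14 were above 80%, with 91.6% ± 0.485, 94.3% ± 2.14 and 93.3% ± 0.675, beside 85.5% ± 1.59, 88.1% ± 1.3 and 88.4% ± 0.78 over the 20003 autosomal regions above 80%. The gap is smaller within this class. It was not tested.

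The level of each gene was also averaged over the tested regions of its window. The means at day 0, day 4 and day 7 were 57.4% ± 1.46, 57% ± 3.59 and 57.8% ± 1.5 for Dnmt1, and 41.5% ± 0.455, 45.5% ± 4.01 and 47.7% ± 0.864 for Dnmt3a. For Dnmt3b they were 26.1% ± 1.6, 28.2% ± 2.17 and 25.5% ± 2.98. The Tet genes had 12.5% ± 0.391, 11.2% ± 1.6 and 13.9% ± 0.0895 for Tet1, 59.8% ± 1.13, 60.7% ± 2.16 and 60.4% ± 0.847 for Tet2, and 60.5% ± 0.84, 61.9% ± 1.19 and 60.8% ± 1.44 for Tet3. Tet1 was lowest and Dnmt3b next on each day, beyond the spread of their samples, followed by Dnmt3a. Dnmt1 lay below Tet2 and Tet3 at day 0 and day 7 without overlap and overlapped with Tet2 at day 4, and Tet2 and Tet3 did not differ beyond their spread on any day. This order follows how many low and high regions each window has in the table and compares no whole genes. Over the tested regions the largest difference of day 7 from day 0 was that of Dnmt3a, 6.23 points, without overlap of the samples. It depends on the setting: with regions of at least 20 reads alone it was 1.93 points, below the 2.4 of Dnmt3b, and with all reads of a window pooled it was 5.21 points, while Tet1 had 7.85 and Tet3 -6.54. With 2 samples against 2 the exact permutation test (two-sided) cannot give a p below 0.3333, and this is the value for Dnmt3a.

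Of 18 other genes that act in the same pathway, RefSeq start sequences were found for 14, and 6 of these could be placed in the table in the same way. These were Uhrf1, which brings Dnmt1 to newly replicated DNA, its relative Uhrf2, Idh1, which makes the cofactor that Tet enzymes use, Gadd45a and Gadd45b, which have been linked to active demethylation, and Cxxc4, a CXXC-domain protein that binds Tet2. Uhrf2 and Gadd45a were placed by 8 cytosines each, fewer than the 9 of Dnmt1, with 6 and 4 at the next best place. Those places are less secure, since a Dnmt3a sequence also reached 8 on a chromosome not its own. Uhrf1, Idh1, Gadd45b and Cxxc4 matched 11 to 21. All 6 starts, as placed, were nearly unmethylated, as the Dnmt1 start was. Uhrf1 ranged over the 6 samples from 0% to 1.14%, Uhrf2 from 0% to 2.82%, Idh1 from 0% to 3.12%, Gadd45a from 0% to 2.63%, Gadd45b from 0% to 1.72% and Cxxc4 from 0.714% to 2.68%. Each start overlapped 1 tested region, and edgeR called 0 of these 6 regions in each of the 3 comparisons, counted with the same rule. The Tet1 start, at 0.704% to 13.3%, reached a higher level than any of the other 7 placed starts. Its highest value came from 30 reads in day 7 replicate 4. All methylated reads of that sample lay on the cytosines 235, 239 and 241 bp upstream, at the edge of the low stretch.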

How the data were processed

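Per the labels' protocols, DNA was cut with MspI or TaqI, ligated to methylated adapters, bisulfite treated and amplified. Per the submitters' processing notes, Bismark, Bowtie2 and the mm9 build were used. How reads were trimmed, deduplicated and assigned to strands, and with which versions, is not given in the sources used here. For each cytosine the authors deposited a methylated fraction and the counts of unmethylated and methylated reads. The deposited fraction equals methylated reads over all reads within 1e-06, and levels were computed from the deposited counts. In each group the 2 samples together had at least 10 reads at every cytosine.

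Runs with 3 or more cytosines and gaps of at most 100 bp were tested as regions where each sample had at least 10 reads in all, and the 6 samples together had at least 1 methylated and 1 unmethylated read. Methylated and unmethylated counts of all 56105 regions and 6 samples were fitted by a negative binomial model in edgeR 4.0.16, under R 4.3.3 (a term for each sample, a methylation term for each group, dispersion without trend), with likelihood ratio tests and Benjamini-Hochberg adjustment over all regions. The fit was tested on simulated data. Groups are the days given in the labels, which name no separate animals or cultures behind the replicates. The p-values therefore reflect the spread of these samples alone, and that spread may be technical. Between replicates, chi-square per degree of freedom was 1.79, 1.73 and 1.89 at day 0, 4 and 7. Without molecular identifiers, the limit that a count of 0 allows (3 reads of the total) covers counting error only. The total counts a read once at each cytosine it crosses, so for a region this limit is too low.

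Regions described in full were, per gene, the one with most cytosines below 20% and the one (or ties) with most above; any called region; and, per comparison, the 3 largest differences among those where every sample had 20 reads or more and the groups did not overlap. Other regions and runs named, single cytosines included, were picked after their values were seen. The members, windows and gene lists were chosen with earlier results of these data known. The limit of 8 matched cytosines for a start site was set after the matches were seen. Of the 14 pathway genes with a start sequence, Dnmt3l, Tdg, Mbd4, Smug1, Idh2, Mbd3, Zfp57 and Apobec1 were not placed. Alternatives were limma 3.58.1 on log ratios (pseudocount 0.5), a quasi-likelihood test in edgeR, Fisher's exact test with reads pooled by day, and other limits on difference, reads, gap, cytosines, chromosomes and samples.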

Additional observations from a re-analysis of the deposited data

How the results depend on the processing

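None of the 51 alternatives to the test (3 comparisons, 17 settings each) called a region of the 6 genes, leaving out each sample in turn included; the smallest adjusted p was 0.0537, for day 7 against day 4 without day 7 replicate 1, then 0.0701, for day 7 against day 0 with gaps of up to 200 bp. With all 6 samples in, these settings called 0 to 3 regions of the whole table for day 4 against day 0, save 358 by Fisher's test. They called 10 to 583 for day 7 against day 4 and 23 to 788 for day 7 against day 0. So few calls in the whole table leave the 0 not particular to these genes. Window means were less stable than the calls. With all reads of a window pooled, which adds runs too short or shallow to test and weights deep ones, the day 4 against day 0 difference changed sign for Dnmt1 (2.43 points), Dnmt3b (-2.98), Tet1 (3.77) and Tet2 (-1.36). So did that of day 7 against day 4 for Dnmt1 (-1.84) and Dnmt3b (5.8), and that of day 7 against day 0 for Dnmt3b (2.82), Tet2 (-3.62) and Tet3 (-6.54). With at least 20 reads in each sample, which leaves 16 regions, it changed for Dnmt1 (-0.549 for day 7 against day 4, -0.796 for day 7 against day 0) and Dnmt3b (1.6 and 2.4). The Dnmt3a differences kept their sign under both but not their size: with at least 20 reads that of day 4 against day 0 was 0.00646 points and that of day 7 against day 0 was 1.93. Depth limits these values most in day 7 replicate 4. No paired analysis was possible because the groups share at most 1 replicate number.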

Other observations

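Some runs outside the tested regions stood out by their values; all were chosen after these were seen. The largest difference among the 37 runs tested with runs of 1 or 2 cytosines admitted was at the Tet1 pair chr10:62276391-62276397, which had 64.3% and 33.3% in marrow, 91.7% and 75% at day 4, then 66.7% in both day 7 samples. Day 4 lay above marrow by 34.5 points, which did not pass the test (unadjusted p = 0.0204, edgeR adjusted p = 0.678), and day 7 lay above it by 17.9 points (edgeR adjusted p = 0.659). The next 4 runs had too few reads for this test. The pair of Tet1 cytosines at chr10:62319442-62319485 was at 50% and 40% in marrow, 81.2% and 72.7% at day 4, then 80% and 100% at day 7, so that both culture days lay above marrow, from 4 to 30 reads per sample. The Tet1 pair next to the low stretch, chr10:62348311-62348319, was at 42.9% and 22.2%, 59.1% and 30%, and 55.6% and 66.7%. A Dnmt1 pair between methylated runs, chr9:20726215-20726258, was at 76% and 50% in marrow, 33.3% and 44% at day 4, then 50% and 57.1% at day 7. The Dnmt3a cytosine at chr12:3883832 was at 32% and 15.4%, 31.6% and 35.7%, and 0% and 22.2%, the 0% from 2 reads.

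A second low place lay upstream of the Tet1 start, with methylated cytosines between the 2. At 3631 to 3812 bp upstream (chr10:62353703-62353884), 3 cytosines had 20 methylated reads of 236, or 8.47%. By sample this was 5.36% and 13.3% in marrow, 5.17% and 0% at day 4, then 7.89% and 31.8% at day 7, the last from 22 reads. Its run of 2 cytosines, chr10:62353863-62353884, did not pass the test with short runs admitted (edgeR adjusted p = 0.849, 0.597 and 0.886 for day 4 from day 0, day 7 from day 4 and day 7 from day 0). The cytosine 519 bp nearer to the start was at 69.8% over all samples. In Tet3, a single cytosine at chr6:83391864 had no methylated read among 74, while the run 307 bp away was at 61.6%.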
